A study of Mus musculus with 86 samples.

Results

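The response of the heart to isoproterenol was compared between B6129SF2/J and C57BL/6 mice, as the treated minus untreated change in B6129SF2/J less the same change in C57BL/6. The members were the 43 arrays, of 86 in the series, whose titles name these lines and the treatment: 12 of treated B6129SF2/J, 10 of untreated B6129SF2/J, 10 of treated C57BL/6 and 11 of untreated C57BL/6 hearts. Treated mice received isoproterenol for 14 days at 120 µg per g body weight per day, and untreated mice received nothing, so no infusion of vehicle stands beside the drug. Treatment was allotted at random, and every mouse received avertin before cervical dislocation. RNA of the heart was extracted on RNeasy columns, and 10 µg of total RNA was labelled for each Affymetrix array. The study's description states that C57 mice developed diastolic dysfunction under catecholamine infusion, that FVB and B2KO mice developed systolic dysfunction, and that B6129SF2/J, a hybrid stock derived in part from C57BL/6J, served as the separate group in which a gene set for systolic dysfunction was tested. Values are log2 intensities on a scale where 0 is the median of an array. All 13 cardiomyocyte markers lay above that median in every group, their mean level per array being 8.92 to 10.48. The labels describe the samples as separate mice, and p-values measure the spread between these arrays.

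Isoproterenol activates β-adrenergic receptors, which through the G protein Gs and adenylyl cyclase raise cyclic AMP in the cardiac myocyte. Cyclic AMP activates protein kinase A, which phosphorylates calcium channels, phospholamban and the transcription factor CREB, so that the heart beats faster and with more force and immediate early genes are transcribed. Sustained infusion is a standard model of hypertrophy and interstitial fibrosis, and mouse strains are known to differ in how far either develops.

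The arrays of the 4 groups differed in a measure that is not a mouse gene. Poly-A control transcripts are bacterial RNAs that can be spiked into a sample before labelling, and the mean log2 level of 4 of them (Dap, Lys, Phe and Thr) ranged from -0.47 through a median of 0.18 to 4.43 in treated B6129SF2/J and from 0.75 through 2.91 to 4.60 in untreated B6129SF2/J. In C57BL/6 it ranged from 3.30 through 6.58 to 7.93 with treatment and from -0.13 through 1.44 to 3.91 without. Treatment thus went with a low control level in B6129SF2/J and with a high control level in C57BL/6. The levels fell into 3 bands. The low band (-0.47 to 2.12) held 10 treated and 1 untreated B6129SF2/J array and 8 untreated C57BL/6 arrays. The intermediate band (2.65 to 4.60) held 2 treated and 9 untreated B6129SF2/J arrays with 4 treated and 3 untreated C57BL/6 arrays, and was the only band with arrays of all 4 groups. The high band (6.33 to 7.93) held 6 arrays, all of treated C57BL/6. Hybridisation controls, added after labelling, ranged from 4.15 to 6.97. Their medians were 5.67 in treated and 6.63 in untreated B6129SF2/J and 6.28 in treated and 5.16 in untreated C57BL/6, so they too were lower with treatment in B6129SF2/J and higher with treatment in C57BL/6, and their part in the results was not tested. The 3′ minus 5′ difference of Gapdh, which widens as RNA is degraded, passed 2 on 3 arrays. Of these, treated B6129SF2/J replicate 7 (2.25) was in the low band. Untreated B6129SF2/J replicate 8 (4.35) and untreated C57BL/6 replicate 11 (7.43) were in the intermediate band. What the bands stand for is not stated in the labels and their part in the results over all arrays was not tested beyond the fits given here, so gene lists and leading genes are given beside their value within the 18 arrays of the intermediate band. In that band the same test rests on 2 arrays of treated B6129SF2/J, and its standard errors are wider. The band's 3 untreated C57BL/6 arrays include replicate 11, of the widest Gapdh difference.

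**Figure D1:**
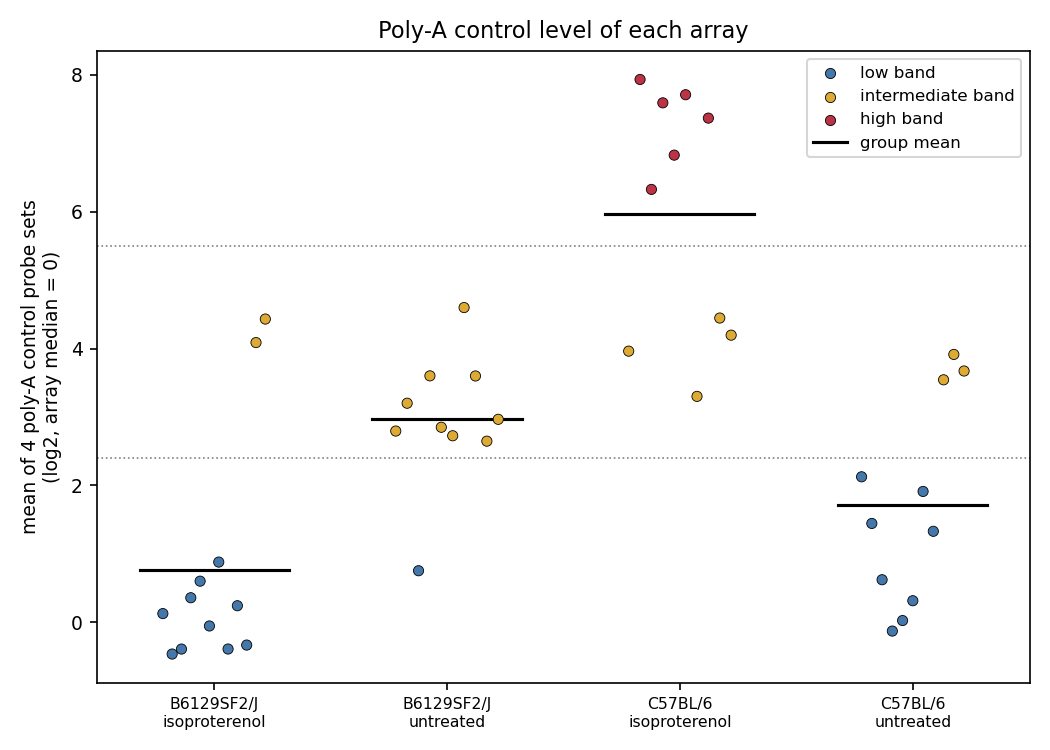
Mean log2 level of 4 poly-A control probe sets (y axis, array median = 0) on each of the 43 arrays, by group (x axis), with points coloured by band, dotted lines at the band limits of 2.4 and 5.5 and black bars at the group means. All 6 arrays of the high band are of treated C57BL/6 hearts, and 10 of the 12 treated B6129SF2/J arrays lie in the low band.

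Over all 43 arrays, 2116 of 11768 genes tested (18%) differed between the responses at an adjusted p under 0.05, by limma's moderated test with Benjamini-Hochberg adjustment. The response was higher in B6129SF2/J for 708 genes (6.02%) and lower for 1408 (12%). That order depended on the scaling of the arrays: after quantile normalization 1733 genes were higher (14.7%) and 1538 lower (13.1%), and with arrays centred on their median 1700 were higher and 1352 lower. The median difference over all genes was -0.13 on the log2 scale, with a median standard error of 0.27. Isoproterenol alone changed 1601 genes (13.6%) in B6129SF2/J, of which 758 rose (6.44%) and 843 fell (7.16%), and 4133 genes (35.1%) in C57BL/6, of which 2705 rose (23%) and 1428 fell (12.1%). Counts in gene lists are to be read against these shares.

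Most of the genes with unequal responses had passed the threshold in C57BL/6 and not in B6129SF2/J. The most frequent pattern, in 986 of the 2116 genes (46.6%), was a lower response in which the gene rose in C57BL/6 and was not called in B6129SF2/J. Next came 459 genes with a higher response that fell in C57BL/6 and were not called in B6129SF2/J. The reverse arrangement was less frequent, with 209 genes that fell in B6129SF2/J only and 128 (6.05%) that rose in B6129SF2/J only. A further 130 genes passed the threshold in both lines with opposite signs, 42 of them rising in B6129SF2/J while falling in C57BL/6. Changes in the same direction in both lines but of unequal size were few: 8 lower and 6 higher genes rose in both lines, and 3 lower and 2 higher genes fell in both. Seen from the untreated hearts, 638 of the 1408 lower genes were higher in untreated B6129SF2/J than in untreated C57BL/6 and not called between the treated hearts. Of the 708 higher genes, 403 were lower in untreated B6129SF2/J and likewise not called between the treated hearts. Over all 11768 genes, 1545 were higher and 895 lower in untreated B6129SF2/J. The untreated levels are a part of the difference by which these genes were chosen, so such counts follow in part from that choice.

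**Figure D2:**
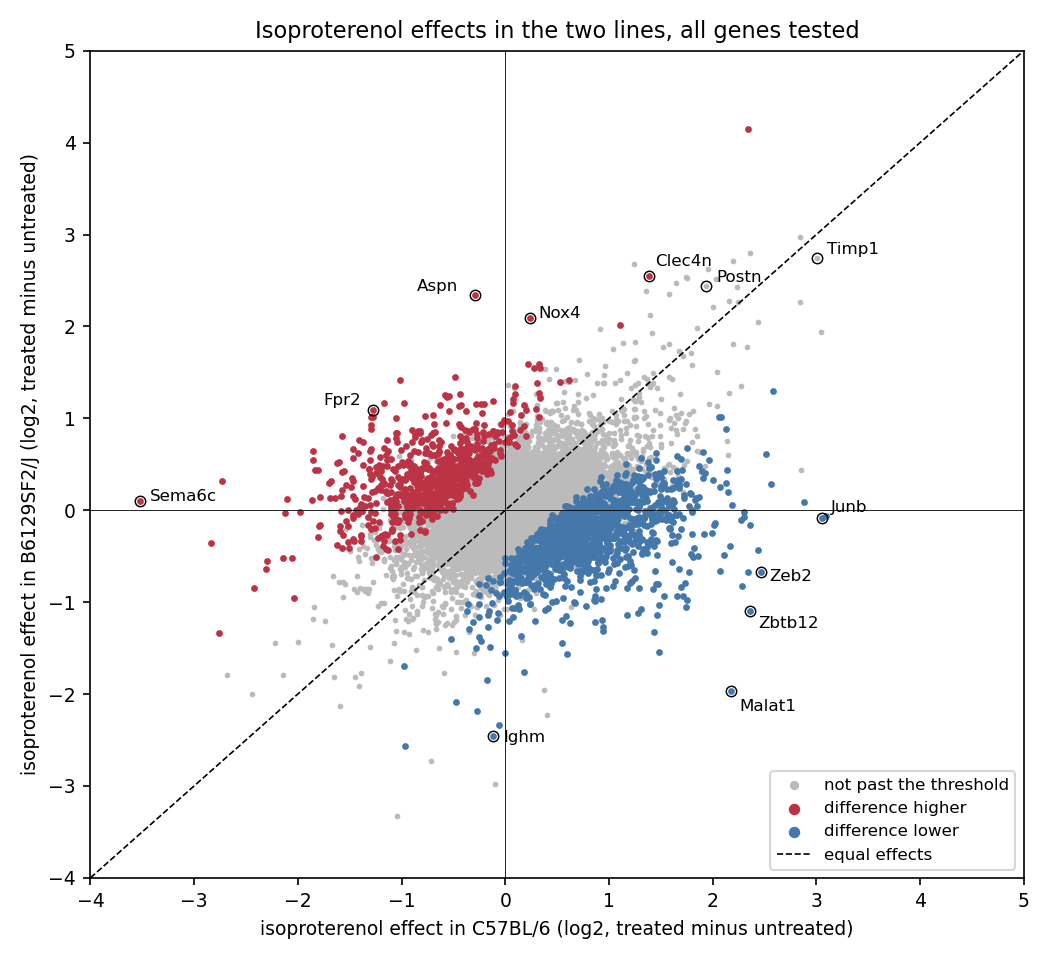
Isoproterenol effect in B6129SF2/J (y axis, log2, treated minus untreated) against that in C57BL/6 (x axis, same scale) for the 11768 genes tested, with genes of a higher response in red, of a lower response in blue and not past the threshold in grey. The matricellular genes Timp1 and Postn lie near the dashed line of equal effects, and Malat1 lies far below it, with effects of -1.96 in B6129SF2/J and 2.18 in C57BL/6.

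The number of calls changed when the poly-A control level entered the fit. With the band as a block in the fit, 5 genes passed the threshold (0.0425%), all higher in B6129SF2/J: Nr4a3, Clec4n, Fcgr2b, Cd14 and Ifrd1, of which Nr4a3, Fcgr2b, Cd14 and Ifrd1 are named after their values were seen. Ifrd1, a transcriptional coregulator of muscle differentiation, had a difference of 1.69 ± 0.34 in that fit (adjusted p = 0.0304) and of 1.26 ± 0.22 over all arrays (adjusted p = 0.000136). The level as a covariate gave 36 (0.306%), and the 18 arrays of the intermediate band alone gave 17 (0.144%). The median standard error was 0.27 over all arrays, 0.40 with the block, 0.38 with the covariate and 0.41 in the band alone. Since the level goes with line and treatment, a part of the level in the differences and a loss of precision cannot be told apart here. Of the 2116 genes, 79.3% had the same sign of difference in the intermediate band, 41.9% were at least 0.5 times as large there, and 11 passed the threshold there. Signs were shared more often among the higher genes, 90.5% in the intermediate band and 96.6% with the covariate, than among the lower genes, 73.6% and 86.9%. The median difference of all genes was itself 0.28 in the intermediate band, so a positive sign there is the more frequent one. Leaving out the 6 high-band arrays of treated C57BL/6 left 1038 genes, of which 706 were among the 2116.

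Passing the threshold over all arrays, with the covariate and within the intermediate band was met by 4 genes: the nuclear noncoding RNA Malat1, the transcription factor Zeb2, the lectin Clec4n and the cochaperone Dnajc12. These settings share arrays, and of the 4 genes only Clec4n also passed with the band as a block. Malat1 RNA is abundant in nuclei, where it associates with splicing factors. It ranged from 5.20 through 6.64 to 7.93 in treated B6129SF2/J hearts, against 6.68, 8.80 and 9.09 (lowest, median and highest) in untreated ones. In treated C57BL/6 hearts it lay at 6.78, 7.98 and 8.50, against 3.79, 5.53 and 7.69 in untreated ones. No treated B6129SF2/J heart was above its untreated mean and all 10 treated C57BL/6 hearts were above theirs, although the ranges overlapped in both lines. The effect was -1.96 in B6129SF2/J and 2.18 in C57BL/6, a difference of -4.14 ± 0.51 (SE; adjusted p = 6.24e-07). The difference was -4.89 ± 0.80 within the intermediate band (adjusted p = 0.0228) and -3.95 ± 0.78 with the covariate (adjusted p = 0.0161). The band's untreated C57BL/6 arrays had Malat1 at 4.08, 7.57 and 7.69, and its treated ones lay at 7.70 to 8.35. The 4.08 is from replicate 11, whose Gapdh difference was 7.43, and its part in the band's value was not tested. Of 7 probe sets of Malat1, 4 passed the threshold with a negative difference and none with a positive one.

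Zeb2, a zinc finger repressor of epithelial genes, had lowest, median and highest values of 2.13, 2.65 and 3.36 in treated B6129SF2/J, against 2.38, 3.58 and 3.80 in untreated B6129SF2/J. Treated C57BL/6 hearts had 3.64, 4.74 and 5.65, against 1.26, 2.22 and 3.10 in untreated C57BL/6. The C57BL/6 groups did not overlap, with every treated heart above every untreated one, while the B6129SF2/J groups overlapped over most of their range. The difference was -3.15 ± 0.34 (adjusted p = 5.2e-08), and -2.65 ± 0.50 within the intermediate band (adjusted p = 0.0404). The band's untreated C57BL/6 arrays had Zeb2 at 1.44 (replicate 11), 2.71 and 3.10, and its treated ones lay at 3.64 to 4.43. These values are those of the brightest probe set of the gene: another Zeb2 probe set had a difference of 1.48 past the threshold, and averaged over its probe sets the gene stood at -0.13 (adjusted p = 0.655).

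Clec4n encodes dectin-2, a receptor of macrophages and dendritic cells for fungal mannans. Treated B6129SF2/J hearts had 1.78, 2.35 and 2.94 as lowest, median and highest values, against -0.77, -0.16 and 0.23 in untreated ones. Treated C57BL/6 hearts had 1.21, 1.89 and 2.57, against -0.67, 0.59 and 1.20 in untreated ones. Clec4n rose in both lines and neither pair of groups overlapped, with the gap wide in B6129SF2/J and narrow in C57BL/6. The effects were 2.55 in B6129SF2/J and 1.39 in C57BL/6, a difference of 1.16 ± 0.28 (adjusted p = 0.00407), with 2.03 ± 0.37 in the intermediate band (adjusted p = 0.0301) and 2.13 ± 0.40 with the band as a block (adjusted p = 0.0304). Its untreated level was already lower in B6129SF2/J, by -0.71 (adjusted p = 0.0102). These are values of the brighter of 2 probe sets, and the other had a difference of 0.51 over all arrays, short of the threshold (adjusted p = 0.293).

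Dnajc12, a J-domain cochaperone of the aromatic amino acid hydroxylases, was singled out after its values were seen. It had 2.86, 3.58 and 4.13 in treated B6129SF2/J, against 2.65, 3.10 and 3.76 in untreated B6129SF2/J. It had 2.33, 2.98 and 4.18 in treated C57BL/6, against 2.35, 3.60 and 4.37 in untreated C57BL/6. The groups overlapped in both lines, and neither line's own effect passed the threshold, at 0.37 in B6129SF2/J and -0.46 in C57BL/6. The difference was 0.82 ± 0.27 (adjusted p = 0.0294), against 2.01 ± 0.39 in the intermediate band (adjusted p = 0.0418).

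**Figure D3:**
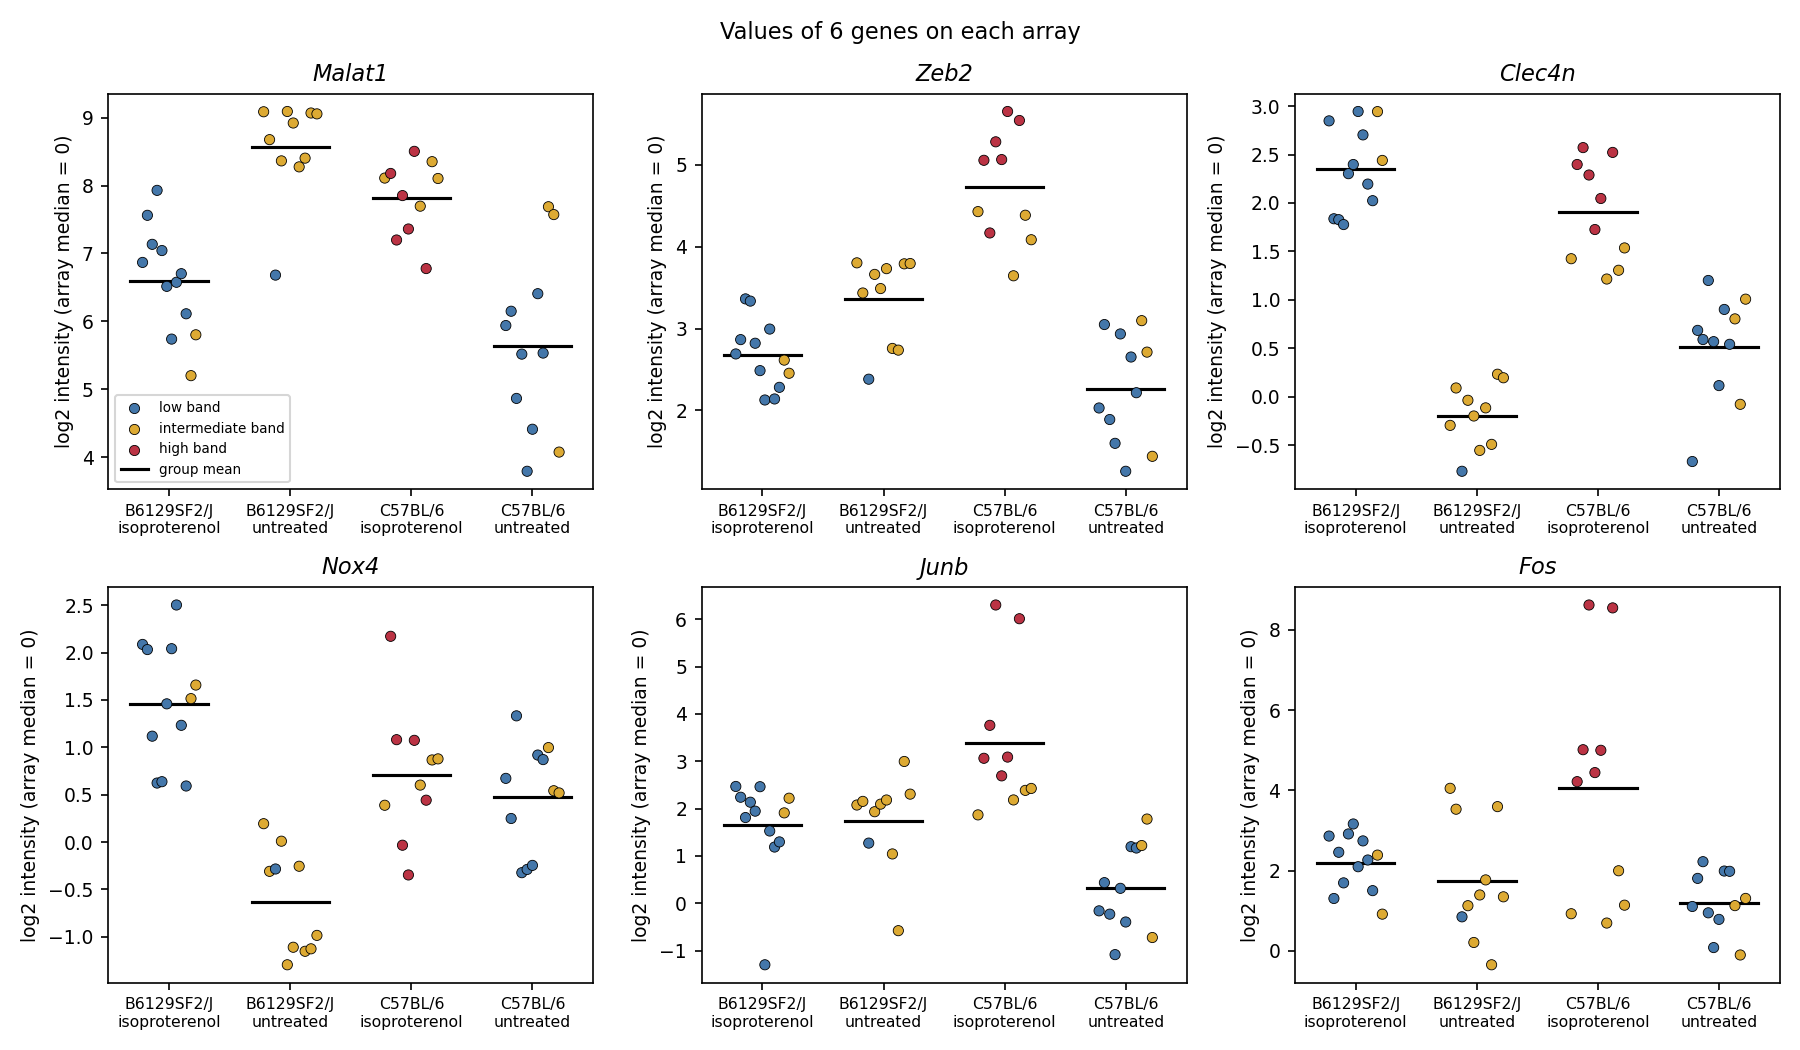
Log2 intensity of Malat1, Zeb2, Clec4n, Nox4, Junb and Fos (y axes, array median = 0) on each array by group, coloured by poly-A control band, with black bars at the group means. Treated and untreated B6129SF2/J hearts do not overlap for Clec4n and Nox4, and the highest Junb and Fos values are those of high-band arrays of treated C57BL/6.

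Nox4, the NADPH oxidase isoform that releases hydrogen peroxide, was likewise singled out after its values were seen. It lay at 0.59, 1.49 and 2.50 in treated B6129SF2/J, against -1.30, -0.65 and 0.19 in untreated B6129SF2/J. In C57BL/6 it lay at -0.35, 0.73 and 2.17 with treatment, against -0.32, 0.54 and 1.33 without. The B6129SF2/J groups did not overlap and the C57BL/6 groups overlapped throughout. Nox4 rose by 2.09 in B6129SF2/J, the C57BL/6 effect being 0.24 (adjusted p = 0.505), and the difference was 1.85 ± 0.36 (adjusted p = 0.000524). It was 2.32 ± 0.54 with the covariate (adjusted p = 0.0382) and 2.26 ± 0.48 in the intermediate band, short of the threshold (adjusted p = 0.0617). A second probe set of Nox4 was also higher, by 1.41.

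Other genes of large difference passed the threshold in the intermediate band or with the covariate. Zbed6, a repressor of Igf2 encoded within an intron of another gene, fell by 1.54 in B6129SF2/J and rose by 1.48 in C57BL/6, a difference of -3.02 ± 0.46 (adjusted p = 2.65e-05) with -2.88 in the intermediate band (adjusted p = 0.0228). Both of its probe sets passed the threshold. The zinc finger gene Zbtb12 fell by 1.10 in B6129SF2/J and rose by 2.36 in C57BL/6, a difference of -3.46 ± 0.41 (adjusted p = 3.74e-07), with -2.64 under the covariate (adjusted p = 0.033). All 10 treated C57BL/6 hearts (0.70 to 2.12) were above all untreated ones (-2.73 to 0.63) for Zbtb12, and its B6129SF2/J groups overlapped. Ccdc85a had a difference of 2.49 ± 0.35 (adjusted p = 7.64e-06), mostly from a fall of 1.85 in C57BL/6, with 1.89 in the intermediate band (adjusted p = 0.0228). Fpr2, the formyl peptide receptor of neutrophils and macrophages, rose by 1.09 in B6129SF2/J and fell by 1.28 in C57BL/6, a difference of 2.37 ± 0.38 (adjusted p = 5.21e-05) with 2.50 under the covariate (adjusted p = 0.0334), at levels near or below the array median in every group.

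The remaining genes at both ends of the ranking were not called in the intermediate band. Sema6c, a transmembrane semaphorin, had the largest positive difference, 3.63 ± 0.82 (adjusted p = 0.00228). It was at -3.03, -0.90 and 0.69 in treated B6129SF2/J, against -2.79, -1.39 and 0.99 in untreated B6129SF2/J, and at -3.04, -2.03 and 1.25 in treated C57BL/6, against -0.27, 1.37 and 4.28 in untreated C57BL/6. Sema6c was thus below the array median in most hearts of the first 3 groups and above it in most untreated C57BL/6 hearts, and its intermediate-band difference was 0.17. The dimmer probe sets of Sema6c went the other way, one by -0.79 (adjusted p = 0.387) and one with means below the array median in every group by -1.42 (adjusted p = 0.0205). Cryl1, the gulonate dehydrogenase, had a difference of 3.05 ± 0.80 (adjusted p = 0.00734; intermediate band 2.03), also from a fall in C57BL/6, by 2.73, and its 3 dimmer probe sets gave -0.59, -0.56 and -0.46, none past the threshold. Among the 12 highest and 12 lowest genes of the ranking, 20 had several probe sets: 3 of these had another one past the threshold in the same direction, 10 had one of opposite sign, and in 3, Sema6c, Zeb2 and Crim1, that one passed the threshold. Asporin (Aspn), a small leucine-rich proteoglycan of fibroblasts that binds TGF-β, differed in the other way, through its rise in B6129SF2/J.

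Aspn had 4.54, 5.23 and 6.61 in treated B6129SF2/J, against 1.16, 3.29 and 4.47 in untreated B6129SF2/J. Treated C57BL/6 hearts had 3.13, 4.86 and 5.39, against 4.17, 4.66 and 5.52 in untreated C57BL/6. Every treated B6129SF2/J heart exceeded every untreated one, and the C57BL/6 groups overlapped. Aspn rose by 2.34 in B6129SF2/J, the C57BL/6 effect was -0.29, and the difference was 2.63 ± 0.43 (adjusted p = 6.94e-05), with 1.19 in the intermediate band (adjusted p = 0.471). Of the other high genes, B3galt2 (2.48), Nrxn3 (2.43), Tmem229a (2.397), E2f5 (2.38), Igf2bp1 (2.33), Gpaa1 (2.30) and Rassf9 (2.29) each combined a fall in C57BL/6 with a B6129SF2/J effect between -0.36 and 1.42. Among them Nrxn3, a synaptic adhesion gene, and Igf2bp1, an mRNA-binding protein, had negative differences in the intermediate band, -0.63 and -0.61.

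At the lower end, Hnrnpl, a splicing regulator, differed by -3.16 ± 0.85 (adjusted p = 0.0087) and Otub1, a deubiquitinase, by -2.79 ± 0.65 (adjusted p = 0.00272). Hnrnpl had -0.02, 3.03 and 4.36 in treated B6129SF2/J, against -0.24, 3.20 and 4.73 in untreated B6129SF2/J, and 3.50, 3.96 and 4.31 in treated C57BL/6, against -1.73, 0.12 and 3.90 in untreated C57BL/6. The treated C57BL/6 hearts were tightly grouped and high, and the other 3 groups each spanned low and high values. In the intermediate band the difference was -0.90 for Hnrnpl and -0.48 for Otub1. Crim1, a transmembrane protein that binds bone morphogenetic proteins, differed by -3.10 on its brightest probe set and by 1.36 on another. The splicing factor Rbfox2 (-3.01), the heparan sulfate proteoglycan Gpc3 (-2.86) and the intermediate filament gene Synm (-2.80) rose in C57BL/6, by 2.34, 2.43 and 1.74. Only Synm of these also fell in B6129SF2/J, by 1.06, and the intermediate-band differences of the 3 genes were -1.88, -0.31 and -1.52.

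Immediate early genes are the first targets of CREB and of mitogen-activated kinases. Of 25 tested, 8 had a lower response in B6129SF2/J and none a higher one, against 12% lower and 6.02% higher over all genes, and their median difference was -0.74. In B6129SF2/J 5 rose and 1 fell, and in C57BL/6 17 rose and none fell, where 6.44% of all genes rose in B6129SF2/J and 23% in C57BL/6. Whether the list's counts differ between the lines beyond those of all genes was not tested. Within the intermediate band the median difference was 0.19 and none was called.

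Junb and Jund, AP-1 subunits that pair with Fos, had the largest of these differences. Junb lay at -1.30, 1.93 and 2.47 in treated B6129SF2/J, against -0.58, 2.08 and 3.00 in untreated B6129SF2/J. In C57BL/6 it lay at 1.87, 2.88 and 6.30 with treatment, against -1.08, 0.32 and 1.78 without. The C57BL/6 groups did not overlap and the B6129SF2/J groups overlapped, a difference of -3.15 ± 0.65 (adjusted p = 0.000884). Among the treated C57BL/6 hearts, the 6 high-band arrays had Junb at 2.69 to 6.30 and the 4 intermediate-band arrays had 1.87 to 2.43, and the intermediate-band difference was -1.19 (adjusted p = 0.55). Jund fell by 1.33 in B6129SF2/J and rose by 1.43 in C57BL/6, a difference of -2.76 ± 0.43 (adjusted p = 3.92e-05; intermediate band -1.04).

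Fos itself missed the threshold, with a difference of -2.42 ± 0.94 (adjusted p = 0.0652). It had 0.91, 2.32 and 3.16 in treated B6129SF2/J, against -0.35, 1.37 and 4.05 in untreated B6129SF2/J, and 0.69, 4.33 and 8.62 in treated C57BL/6, against -0.11, 1.13 and 2.22 in untreated C57BL/6. The treated C57BL/6 hearts split by band, the 6 high-band arrays lying at 4.22 to 8.62 and the 4 intermediate-band arrays at 0.69 to 1.99. Egr1, a zinc finger factor induced with Fos, split in the same place, with 4.97 to 9.30 and 2.70 to 4.00. Its difference was -2.65 ± 0.72 over all arrays (adjusted p = 0.00878) and -0.10 in the intermediate band.

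The antiproliferative gene Btg2 (-2.60), Ier2 (-2.25), the MAP kinase phosphatase Dusp1 (-1.56), the stress-inducible Gadd45b (-0.96) and Csrnp1 (-0.84) made up the rest of the lower genes. Each of the first 3 rose in C57BL/6, by 2.11, 2.00 and 1.07, and none of the 3 changed in B6129SF2/J. Intermediate-band differences were -0.41 for Btg2 and -0.53 for Dusp1. The nuclear receptor Nr4a1 rose alike, by 1.43 in B6129SF2/J and 1.37 in C57BL/6, a difference of 0.06 ± 0.63 (adjusted p = 0.958). Its relative Nr4a3, a direct CREB target, ran the other way, with effects of 2.68 in B6129SF2/J and 1.24 in C57BL/6. Nr4a3 missed the threshold over all arrays (difference 1.44, adjusted p = 0.117) and passed it with the band as a block (4.50 ± 0.89, adjusted p = 0.0304) and with the covariate (4.09 ± 0.84, adjusted p = 0.0181).

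The promoters of 3 of these genes are shown because CREB, which isoproterenol activates, binds the cyclic AMP response element, TGACGTCA, or its first 5 bases, TGACG. Each line gives the 250 bases before the gene's start from RefSeq on build GRCm38.p6, read 5′ to 3′ on the gene's strand, with 1 match in capitals: the 8-base element where the window holds it, and TGACG for Junb. Further matches to TGACG stay in lower case. Junb lies at chr8:84978749-84978998 on the minus strand with TGACG 106 bases before the start, Btg2 at chr1:134079156-134079405 on the minus strand with TGACGTCA 166 bases before it, and Dusp1 at chr17:26508473-26508722 on the minus strand with TGACGTCA 143 bases before it.
Junb: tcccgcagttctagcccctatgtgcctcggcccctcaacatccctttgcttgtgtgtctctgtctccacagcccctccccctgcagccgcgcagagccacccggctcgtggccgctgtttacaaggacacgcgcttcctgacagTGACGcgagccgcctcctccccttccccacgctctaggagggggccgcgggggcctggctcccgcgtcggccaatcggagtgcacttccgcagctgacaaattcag
Btg2: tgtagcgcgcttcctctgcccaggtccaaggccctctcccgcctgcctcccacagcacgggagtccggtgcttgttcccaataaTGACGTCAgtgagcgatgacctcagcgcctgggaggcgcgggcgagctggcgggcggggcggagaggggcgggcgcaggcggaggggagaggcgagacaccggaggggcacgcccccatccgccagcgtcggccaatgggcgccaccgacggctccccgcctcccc
Dusp1: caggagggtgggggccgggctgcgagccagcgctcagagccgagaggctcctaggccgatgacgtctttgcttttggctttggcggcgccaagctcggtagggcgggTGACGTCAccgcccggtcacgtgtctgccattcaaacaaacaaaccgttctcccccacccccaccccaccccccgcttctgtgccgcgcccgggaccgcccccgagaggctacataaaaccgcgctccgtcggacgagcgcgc

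Of the 25 immediate early genes tested, 21 had a promoter in this set, 2 of them (9.52%) with the 8-base element and 11 (52.4%) with the 5-base motif on either strand, of which every 8-base element counts as an instance. Among all 32851 promoters of the same length, 1.55% held the 8-base element and 17.8% the 5-base motif. Of the 8 genes with a lower response, 6 had a promoter here, 2 with the 8-base element and 4 with the 5-base motif. The promoters shown all hold a match. Of those not shown, Csrnp1 had the 5-base motif only, and Jund and Gadd45b had neither. A match is a description of the letters and not a binding site.

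Fibrosis genes rose in both lines and differed little between them. Of 37 extracellular matrix genes tested, 28 rose and none fell in B6129SF2/J, and 31 rose and 1 fell in C57BL/6. None had a higher response and 1 had a lower one, the fibril-associated collagen Col12a1 (-0.90 ± 0.30, adjusted p = 0.0338), against 18% of all genes called. Median effects were 1.06 in B6129SF2/J and 1.18 in C57BL/6. In the intermediate band they were 1.26 and 0.43, with a median difference of 0.63 where that of all genes was 0.28.

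Periostin (Postn), secreted by activated fibroblasts, had 7.28, 8.12 and 9.58 in treated B6129SF2/J, against 5.23, 5.77 and 6.37 in untreated B6129SF2/J. Treated C57BL/6 hearts had 7.22, 7.79 and 9.22, against 4.88, 5.85 and 6.89 in untreated ones. Treated and untreated hearts did not overlap in either line. Postn rose by 2.44 in B6129SF2/J and 1.94 in C57BL/6, a difference of 0.50 ± 0.35 (adjusted p = 0.334), with 1.95 in the intermediate band (adjusted p = 0.0753). The metalloproteinase inhibitor Timp1 rose by 2.75 in B6129SF2/J and 3.01 in C57BL/6, the matricellular protein Tnc by 2.79 and 2.36, and the cartilage matrix protein Cilp by 2.71 and 2.19, and their differences of -0.26, 0.43 and 0.51 had standard errors of 0.42, 0.39 and 0.46. Vimentin (Vim), the intermediate filament of mesenchymal cells, rose in B6129SF2/J only by its calls, by 1.26 against a C57BL/6 effect of 0.10, a difference of 1.16 ± 0.25 (adjusted p = 0.0013; intermediate band 0.68). The cytokine Tgfb1, which drives fibroblast activation, differed by -1.25 ± 0.32 (adjusted p = 0.00618; intermediate band -1.28), after a rise of 1.53 in C57BL/6.

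Most hypertrophy genes were not called, and their median difference was lower than that of all genes. The natriuretic peptides Nppa and Nppb differed by -0.47 ± 0.23 and -0.71 ± 0.44, the myosin heavy chains Myh6 and Myh7 by -0.27 ± 0.22 and -0.64 ± 0.46, and skeletal α-actin Acta1 by -0.50 ± 0.53, none past the threshold (adjusted p from 0.154 to 0.537). Of 15 hypertrophy and fetal genes tested 4 were lower and none higher, against 12% lower and 6.02% higher over all genes. The lower genes were Uchl1, Csrp3, Tnnt1 and Xirp1, at -0.99, -0.93, -0.91 and -0.65. The median of the list was -0.47, where that of all genes was -0.13. In the intermediate band it was 0.35, where that of all genes was 0.28. Csrp3, the muscle LIM protein of the Z-disc, had 9.40, 9.87 and 10.43 in treated B6129SF2/J, against 10.17, 10.35 and 10.65 in untreated B6129SF2/J, and its intermediate-band difference was 0.24. Tnnt1, slow skeletal troponin T, fell by 1.16 in B6129SF2/J, the C57BL/6 effect being -0.26.

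Contractile genes had lower responses over all arrays. Of 21 sarcomere and Z-disc genes tested 13 were lower and none higher, against 12% lower and 6.02% higher over all genes, with a median difference of -0.71. After quantile normalization 2 were higher and 9 lower, against 14.7% and 13.1% of all genes, and the median was -0.21. In B6129SF2/J 6 fell and none rose, and in C57BL/6 12 rose and none fell. The thin filament gene Tnnc1 (-1.21 ± 0.27), the intermediate filament gene Des (-1.18 ± 0.34), the titin cap Tcap (-1.16 ± 0.23) and myosin-binding protein Mybpc3 (-0.84 ± 0.26) led them. Tnnc1 had 9.14, 9.76 and 10.35 in treated B6129SF2/J, against 10.16, 10.38 and 10.67 in untreated ones, and 9.14, 10.04 and 10.63 in treated C57BL/6, against 8.34, 9.43 and 10.59 in untreated ones. All 4 groups overlapped, with untreated B6129SF2/J highest and untreated C57BL/6 lowest. The list's median was -0.10 in the intermediate band with none called, where Tnnc1, Des, Tcap and Mybpc3 stood at 0.02, -1.16, -0.27 and 0.06. Of 13 cardiomyocyte markers 8 were lower and 1 higher, with a median of -0.64 and an intermediate-band median of -0.23, but after quantile normalization 3 were higher and 4 lower, with a median of -0.10. Their summed level on the linear scale had medians of 20600 and 22890 in treated and untreated B6129SF2/J, and of 20690 and 14190 in treated and untreated C57BL/6. The part of the myocyte level in the contractile result was not tested. In whole hearts, fewer cells of a type and less RNA per cell cannot be told apart.

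The called calcium and channel genes were lower, except for 1 calcium gene. Of 18 calcium cycling genes 1 was higher and 6 lower, and of 19 ion channel and gap junction genes none was higher and 7 lower, against 6.02% higher and 12% lower over all genes. After quantile normalization the calcium list had 3 higher and 4 lower and the channel list 2 higher and 7 lower. The sodium-calcium exchanger Slc8a1 fell short of a call in B6129SF2/J (effect -0.98) and rose by 1.76 in C57BL/6, a difference of -2.74 ± 0.54 (adjusted p = 0.000646) with -2.45 in the intermediate band (adjusted p = 0.0418). Its probe sets disagreed: the next brightest gave -0.91, short of the threshold, and a dim one passed the threshold in the other direction, at 1.75 (adjusted p = 0.00151). Camk2d, the calmodulin-dependent kinase isoform abundant in the heart, was the higher gene, at 1.34 ± 0.26 (adjusted p = 0.000494; intermediate band 0.76), through a fall of 0.94 in C57BL/6. Camk2a, an isoform best known from brain, was lower by the same size, -1.34 ± 0.30 (intermediate band -0.78). The sarcoplasmic reticulum calcium pump Atp2a2 differed by -0.73 ± 0.23 (adjusted p = 0.0227), but by 0.03 when its probe sets were averaged.

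Among the channels, the T-type calcium channel Cacna1g (-1.85 ± 0.46), the repolarising potassium channel Kcnh2 (-1.74 ± 0.31), the sodium channel subunit Scn4b (-1.62 ± 0.46) and the pacemaker channel Hcn2 (-1.32 ± 0.36) were lower. Scn4b stood out by its fall in B6129SF2/J, to -0.90, -0.19 and 2.70 in treated hearts, against 1.26, 1.92 and 3.82 in untreated ones. In C57BL/6 it lay at 2.02, 2.86 and 3.89 with treatment, against 2.52, 3.46 and 3.84 without. The C57BL/6 groups overlapped throughout and all but 1 treated B6129SF2/J heart lay below the untreated mean, yet the intermediate-band difference of Scn4b was 1.27. That of Kcnh2 was -1.02, that of Hcn2 -0.43 and that of Cacna1g -0.24.

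Of 26 genes of β-adrenergic and cyclic AMP signalling tested, 4 rose in B6129SF2/J and 15 in C57BL/6, where all genes rose more often in C57BL/6 too. None had a higher response in B6129SF2/J and 5 had a lower one, against 12% lower over all genes, with a median difference of -0.17. After quantile normalization 4 were higher and 4 lower, with a median of -0.02. The α1B receptor Adra1b (-1.78 ± 0.52), the cyclic AMP phosphodiesterase Pde3a (-1.71 ± 0.38), β-arrestin 1 (Arrb1, -1.14 ± 0.30), the cyclic AMP sensor Rapgef3 (-0.84 ± 0.27) and the cardiac adenylyl cyclase Adcy6 (-0.50, adjusted p = 0.0496) were the lower genes. Pde3a had 1.45, 2.69 and 3.22 in treated B6129SF2/J, against 1.38, 2.75 and 3.63 in untreated ones, and 1.69, 2.28 and 3.00 in treated C57BL/6, against -0.42, 0.82 and 2.38 in untreated ones. Untreated C57BL/6 hearts were lowest and the other 3 groups lay together. The intermediate-band differences of Adra1b, Pde3a, Arrb1 and Rapgef3 were -1.99, -1.04, -0.43 and -0.32, none past the threshold. Among feedback genes of the pathway, the receptor kinase Grk5 differed by 0.44, the phosphodiesterases Pde4b and Pde4d by 0.62 and -0.07 and the CREB-family repressor Crem by 0.44, none past the threshold. Dio2, the thyroid hormone-activating deiodinase and a cyclic AMP target, rose by 2.05 in B6129SF2/J and 2.44 in C57BL/6.

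Genes of energy metabolism had lower calls without higher ones over all arrays. Of 27 fatty acid oxidation genes tested 14 were lower and none higher, against 12% lower and 6.02% higher over all genes, with a median of -0.66. After quantile normalization 1 was higher and 10 lower, with a median of -0.29. In B6129SF2/J 18 of them fell and 1 rose, and in C57BL/6 3 fell and 7 rose. The fatty acid transporter Slc27a1 (-1.74 ± 0.31), short-chain acyl-CoA dehydrogenase Acads (-1.17 ± 0.23), malonyl-CoA decarboxylase Mlycd (-1.07 ± 0.30) and the dienoyl-CoA reductase Decr1 (-0.96 ± 0.28) were the largest. Acads had 5.07, 5.63 and 5.99 in treated B6129SF2/J, against 5.92, 6.25 and 6.77 in untreated ones, and 5.28, 5.97 and 6.73 in treated C57BL/6, against 4.60, 5.67 and 6.08 in untreated ones. The B6129SF2/J groups nearly separated and the C57BL/6 groups overlapped. In the intermediate band the median effects of the list were -0.56 in B6129SF2/J and -0.45 in C57BL/6, where those of all genes were -0.02 and -0.29. The median difference of the list was -0.07 there and that of all genes 0.28, which puts the list at -0.35 relative to all genes, with none called. Slc27a1, Acads and Mlycd stood at -0.63, -0.21 and -0.47 there, and Decr1 at 0.11.

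Respiratory chain genes followed, with 10 of 28 lower and none higher, a median of -0.56 and an intermediate-band median of -0.03, and after quantile normalization 2 were higher and 9 lower with a median of -0.12. Cox6a2, the muscle subunit of cytochrome oxidase, differed by -1.13 ± 0.26, Ndufa4 by -1.02 ± 0.27, and the ATP synthase subunit Atp5b by -0.94 ± 0.22, against -0.07, 0.10 and -0.49 in the intermediate band. Glycolysis and glucose transport genes had 7 of 20 lower and none higher, with 12 rising in C57BL/6 and 2 in B6129SF2/J. Aldolase A (Aldoa), Pfkl, Pfkm and the insulin-responsive glucose transporter Slc2a4 differed by -1.17, -1.02, -1.01 and -0.84, and in the intermediate band by -0.27, -0.36, -0.26 and -1.11. The list's median was -0.54 over all arrays and 0.19 in the intermediate band. Of 15 tricarboxylic acid cycle genes 2 were lower, Idh2 (-0.90) and Ogdh (-0.71), a share near that of all genes, and none was higher. After quantile normalization 2 of the list were higher and 2 lower, and in the intermediate band Idh2 stood at 0.04 and Ogdh at -0.07. Of 20 cell cycle genes none was called in either direction, against 18% of all genes, although their median difference was -0.60 (intermediate band 0.10). In C57BL/6 12 of them rose and in B6129SF2/J 3, against 23% and 6.44% of all genes.

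Macrophage, cytokine and interferon genes had positive median differences. Of 24 macrophage and monocyte markers tested 5 were higher and none lower, against 6.02% and 12% of all genes, and 7 were higher after quantile normalization, against 14.7% of all genes. Their median was 0.13, with 1.04 in the intermediate band. The monocyte chemokine receptor Ccr2 had 1.99 ± 0.49 (adjusted p = 0.00416; intermediate band 1.43), through a fall of 1.70 in C57BL/6. The complement subunit C1qb had 1.40 ± 0.26 (adjusted p = 0.000402; intermediate band 1.60), with a rise of 0.76 in B6129SF2/J and a fall of 0.64 in C57BL/6. Its partners C1qa and C1qc had differences of -0.45 and -0.70, short of the threshold. The call for C1qb rests on its brightest probe set, since its 2 other probe sets gave -0.40 and 0.63, neither past the threshold. Cathepsin S (Ctss) and the hyaluronan receptor Lyve1 were also higher, by 1.02 and 0.97, besides Clec4n, and by 0.91 and 1.82 in the intermediate band. The summed linear level of the 25 markers on the array had medians of 1135 and 791.5 in treated and untreated B6129SF2/J, and of 1253 and 923.2 in treated and untreated C57BL/6, and its ranges overlapped between lines. With the band as a block, the Fc receptor Fcgr2b (1.93 ± 0.37, adjusted p = 0.0304) and the endotoxin coreceptor Cd14 (1.78 ± 0.36, adjusted p = 0.0324) passed the threshold, which over all arrays they missed at 0.70 and 0.41.

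Of 20 cytokines and chemokines 2 were higher, the monocyte chemoattractant Ccl8 (1.26 ± 0.39, adjusted p = 0.0214) and the alarmin Il33 (1.00 ± 0.29, adjusted p = 0.0128), and Tgfb1 was lower. Higher calls in that list numbered 6 after quantile normalization and 7 with arrays centred on their median. Ccl8 had 0.59, 1.69 and 2.93 in treated B6129SF2/J, against -0.84, 0.15 and 1.30 in untreated ones, and 0.52, 1.15 and 2.81 in treated C57BL/6, against -0.16, 0.78 and 2.55 in untreated ones. All 12 treated B6129SF2/J hearts were above the untreated mean, against 6 of 10 in C57BL/6. With the covariate the Ccl8 difference was 2.35 (adjusted p = 0.0418). In the intermediate band Ccl8 stood at 2.66 and Il33 at 1.17, and the median of the list was 1.08. Of 19 interferon-response genes 1 was higher, Irf9, a subunit of the interferon-stimulated transcription complex (0.70 ± 0.20, adjusted p = 0.0126; intermediate band 0.30), and none was lower, a share below that of all genes. Of that list 4 were higher after quantile normalization and 5 with arrays centred on their median. Hepcidin (Hamp), which lowers iron export, fell in both lines, by 0.95 in B6129SF2/J and 2.03 in C57BL/6, a difference of 1.08 ± 0.37 (adjusted p = 0.0373) that was called in 31 of the 43 fits leaving out 1 array and was 0.12 in the intermediate band. Metallothionein Mt2 rose in both, by 2.02 and 1.11, a difference of 0.91 ± 0.31 (adjusted p = 0.0353; intermediate band 1.81).

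B cell and plasma cell genes fell in B6129SF2/J. Of 6 tested 3 were lower and none higher, against 12% lower and 6.02% higher over all genes. Their median was -1.88, and -1.98 in the intermediate band. In B6129SF2/J 5 of the 6 fell, against 7.16% of all genes, and in C57BL/6 none changed by its call. Of 8 list members on the array, 2 had a mean below the array median in untreated B6129SF2/J, 6 in treated B6129SF2/J and 7 in each C57BL/6 group. Genes were kept by a group mean above that median. Most of these genes were thus kept through untreated B6129SF2/J, a choice that favours a fall there. Ighm, the heavy chain of IgM, had 1.00, 2.56 and 4.47 in treated B6129SF2/J, against 2.70, 4.73 and 7.95 in untreated ones. It had 1.53, 3.04 and 4.93 in treated C57BL/6, against 2.45, 3.17 and 5.17 in untreated ones. No treated B6129SF2/J heart was above the untreated mean, and the 3 highest values, 7.22, 7.73 and 7.95, were in untreated B6129SF2/J replicates 2, 4 and 10. The difference was -2.34 ± 0.74 (adjusted p = 0.0226; intermediate band -3.06, adjusted p = 0.414). The plasma cell chaperone Mzb1 (-1.94 ± 0.48, adjusted p = 0.00446) and the B cell receptor subunit Cd79b (-1.82 ± 0.50, adjusted p = 0.00959) were lower too, with -2.13 and -0.37 in the intermediate band, at levels near the array median. With the poly-A control band as a block the sign of the Cd79b difference turned. The joining chain Jchain missed the threshold (-2.28 ± 0.97, adjusted p = 0.0938).

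Lung epithelial transcripts were high in 3 untreated B6129SF2/J hearts. Scgb1a1, secreted by club cells of the airway, was at 7.38, 8.90 and 5.64 in untreated B6129SF2/J replicates 1, 6 and 10, and at 0.18 or below in the other 7. The alveolar gene Sftpc was at 4.37 and 3.31 in replicates 1 and 10 and dim in the others. Of 14 lung epithelial markers on the array, 13 had a mean below the array median in treated B6129SF2/J, 11 in untreated B6129SF2/J, and all 14 in both C57BL/6 groups. Their summed linear level reached 9.47 in treated and 644.7 in untreated B6129SF2/J, and 12.1 in treated and 9.63 in untreated C57BL/6. The Scgb1a1 difference was -2.88 ± 1.10 (adjusted p = 0.0605). Without those 3 hearts Ighm stood at -2.23 ± 0.72 (adjusted p = 0.0352), Mzb1 at -1.98 (adjusted p = 0.00935) and Cd79b at -1.64 (adjusted p = 0.0299). Jchain stood at -2.05 (adjusted p = 0.165) and the B cell receptor subunit Cd79a at -1.15 (adjusted p = 0.148), against -1.36 for Cd79a over all arrays. Of these genes all but Mzb1 had a smaller difference than over all arrays. The count of genes called went to 1477, of which 1458 were among the 2116.

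Endothelial markers had 5 of 14 lower and none higher, against 12% lower over all genes, a median of -0.65 and 0.04 in the intermediate band, led by the tight junction gene Cldn5 (-1.61 ± 0.41) and the VEGF receptor Kdr (-1.03 ± 0.27), which stood at -0.23 and -0.14 in that band. In C57BL/6 9 of the 14 rose, and in B6129SF2/J none changed by its call. Of 12 smooth muscle and pericyte markers 3 were lower, and of 12 cardiac fibroblast markers 1 was higher (Vim) and 1 lower, the pericyte and stromal sialomucin Cd248 (-1.33 ± 0.33; intermediate band -0.23). Of 11 adipocyte markers 1 was lower, the lipid droplet gene Cidea (-1.10 ± 0.30), and the list's intermediate-band median was -1.59. The brown fat uncoupling protein Ucp1 varied widely within every group and differed by -1.11 ± 1.07. The T cell and stromal marker Thy1 differed by -1.16 ± 0.39 (adjusted p = 0.0311), and 1 treated C57BL/6 heart had it at 6.05 with a mean level of T and NK cell markers of 2.90, against a group median of -0.51. Of 10 mesothelial markers 1 was higher and 4 lower, with a median of -0.59 and 0.02 in the intermediate band, and after quantile normalization 1 was higher and 2 lower. Among them the keratin Krt8 differed by -2.12 ± 0.43 (adjusted p = 0.000746; intermediate band -1.48). Of 6 neural and Schwann cell markers 2 were higher and 1 lower.

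**Figure D4:**
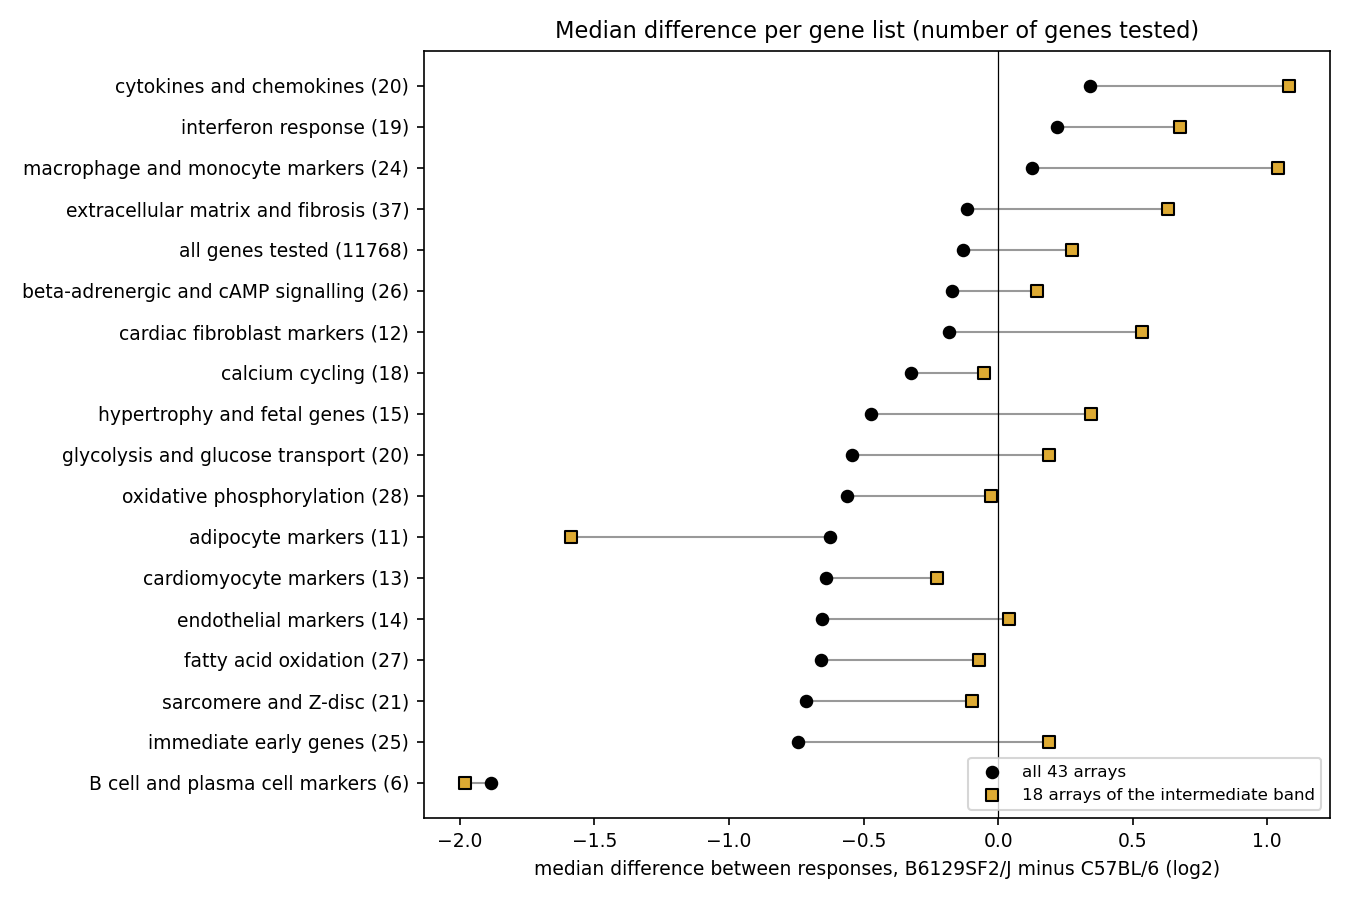
Median difference between responses (x axis, log2, B6129SF2/J minus C57BL/6) for 17 gene lists and all genes tested (y axis, number of genes tested in parentheses), over all 43 arrays (black circles) and over the 18 arrays of the intermediate poly-A control band (yellow squares). The median of all genes is 0.28 in the band and -0.13 over all arrays, and relative to it the sarcomere, fatty acid oxidation and respiratory chain lists lie at -0.37, -0.35 and -0.30 in the band and at -0.58, -0.53 and -0.43 over all arrays, and the immediate early list at -0.09 and -0.61. The B cell median is -1.98 in the band and -1.88 over all arrays, and most genes of that list were kept through untreated B6129SF2/J, a choice that favours a fall there.

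Among genes of protein and RNA handling and of the clock, each list but that of endoplasmic reticulum stress had calls in both directions. Over all genes 6.02% were higher and 12% lower. Of 39 splicing and mRNA processing factors tested 5 were higher and 6 lower, shares near those of all genes, and 12 were higher and 8 lower after quantile normalization. Among them Tra2a differed by 1.56 ± 0.38, by 0.71 in the intermediate band and by -0.02 with its probe sets averaged, and Hnrnpu by -1.11 ± 0.25 and by 0.06 in the band. Of 17 clock genes the repressor Cry1 was higher (1.70 ± 0.37) and Nr1d1, Hlf and Cry2 were lower (-2.26, -0.94 and -0.73), and their intermediate-band values were 0.70, -0.79, -1.20 and -0.76. Of 20 endoplasmic reticulum stress genes none was higher and 3 were lower, a share near that of all genes, and 5 were higher and 4 lower after quantile normalization. The 3 lower genes were Pdia4, Pdia3 and Calr, and their intermediate-band differences were positive, at 0.19, 0.32 and 0.12. Of 18 heat shock genes 2 were higher, Hsp90aa1 and Hspa8 at 0.97 and 0.74, and 3 were lower. Of the ribosomal protein and proteasome genes, 3 of 23 and 4 of 25 passed the threshold in either direction, against 18% of all genes.

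The series' other lines, FVB and B2KO, take no part in this contrast, and their effects are given as a description, with no test. The called genes were chosen by the difference between the lines compared, so the distance between those 2 medians, and a place between them for any other line, follow in part from that choice. For the 708 higher genes the median effect was 0.35 in B6129SF2/J and -0.69 in C57BL/6, with -0.01 in FVB and -0.08 in B2KO without 1 treated array whose median correlation with the other arrays was under 0.7. For the 1408 lower genes it was -0.27 in B6129SF2/J and 0.73 in C57BL/6, with -0.02 in FVB and -0.03 in B2KO. With that B2KO array kept, the B2KO medians were -0.19 and -0.32. Malat1 had effects of 0.46 in FVB and 0.15 in B2KO. Clec4n had effects of 2.55 in B6129SF2/J, 1.39 in C57BL/6, 2.10 in FVB and 1.40 in B2KO.

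**Figure D5:**
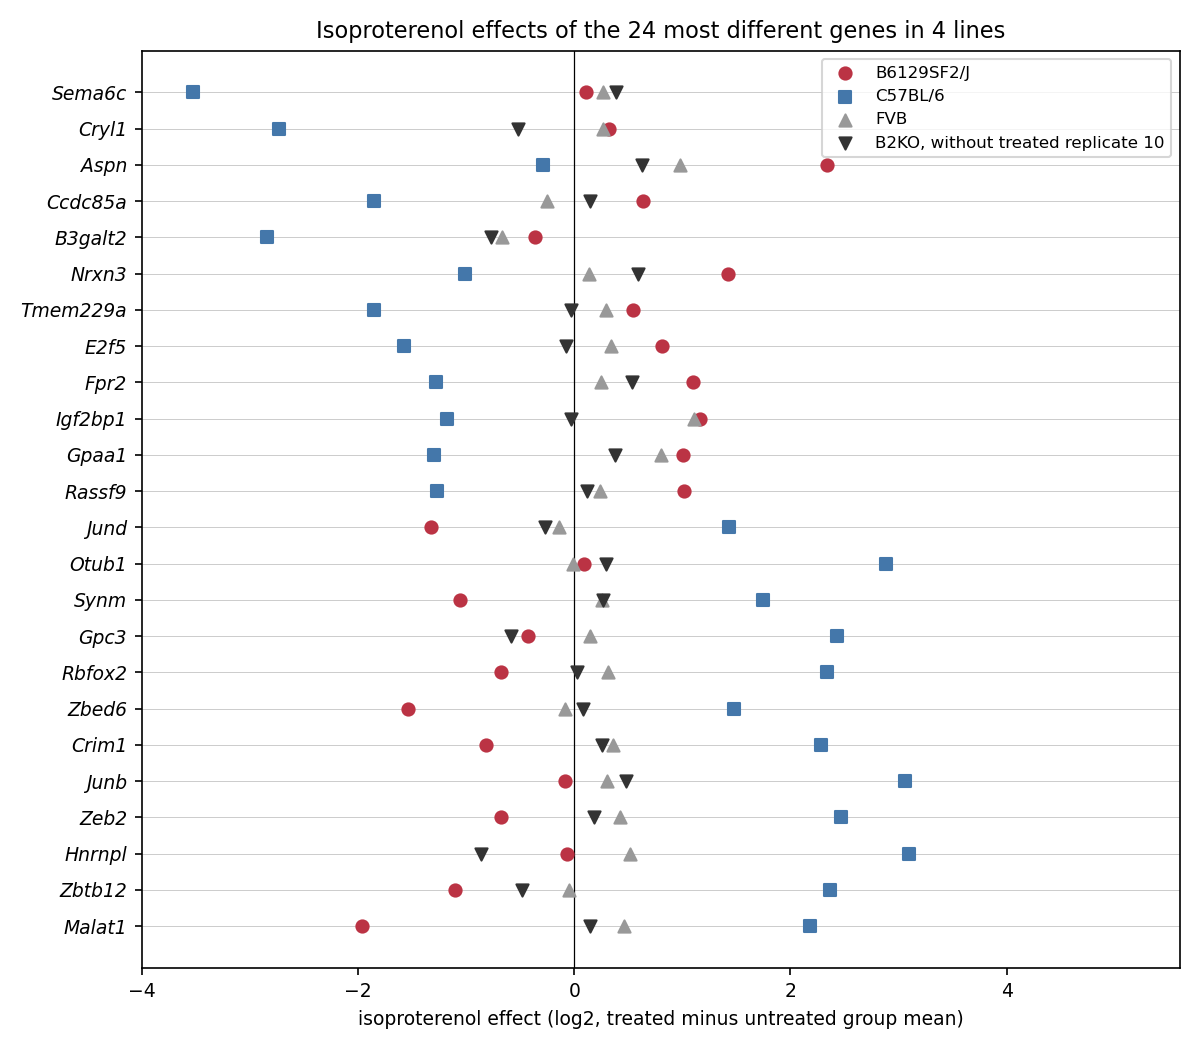
Isoproterenol effect (x axis, log2, treated minus untreated group mean) of the 12 highest and 12 lowest named differences (y axis) in B6129SF2/J, C57BL/6, FVB and B2KO, the last without treated replicate 10, the array of low correlation with the others. The genes were ranked by the difference between the first 2 lines, so the wide spread of those lines, -1.96 to 2.34 in B6129SF2/J and -3.53 to 3.10 in C57BL/6, is set by the choice, and the FVB effects lie between -0.66 and 1.10.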

How the data were processed

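Whole-heart RNA was hybridised to 1 Affymetrix array per sample. The deposited values are linear intensities made by the authors, and GCRMA is the tool named in the submitters' processing notes, its version not given in the sources used here. Every array has a median of 1. They were taken to log2. Of 45101 probe sets, 34945 had 1 gene symbol in the platform annotation, 932 several, 9160 none, and 64 were controls; symbols were updated by gene number (99.4% matched) and each gene was read from its brightest probe set, by the mean of the 86 arrays, giving 18193 genes. Genes with a group mean above log2 0 were kept (11768). limma 3.58.1 in R 4.3.3 (lmFit, eBayes) fitted 4 group means to the 43 arrays, and the difference of the treated minus untreated effects was tested two-sided with Benjamini-Hochberg adjustment over all genes kept, at 0.05. The number of arrays limits the precision. On simulated data of 11768 genes with 50 genes changed by 2 on the log2 scale, this test found 98%, and of 50 changed by 1 and 50 by -1 it found 46% and 52%. A gene's effect in FVB or B2KO is a difference of group means, with a pair of arrays that correlated above 0.9999 in those lines averaged as 1 sample.

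The members and gene lists were chosen with earlier results of these data known. Lists are described by counts and medians, without a test. The text names the 12 highest and 12 lowest differences, up to 4 called members of each list, the 6 largest opposite effects and a fixed set of heart, fibrosis and marker genes, passing over clone names. Genes named outside that rule, after their values were seen, are Dnajc12, Nox4, Nr4a3, Ifrd1, Fcgr2b, Cd14, Cd79a, Sftpc, Ier2, Csrnp1, Gadd45b, Adcy6, Lyve1, C1qa, C1qc, Grk5, Pde4b, Pde4d and Crem. Alternatives were other scalings, filters, moderation, probe set averaging, array weights, a fit over all 8 groups, a replicate block and leaving out each array. The settings that use the poly-A controls or Scgb1a1 were chosen after seeing the data.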

Additional observations from a re-analysis of the deposited data

Results flagged for a closer look

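Of 96 groups of values examined for a single distant array, 9 had one, where chance flags about 1 in 20 groups. All 9 were in untreated B6129SF2/J or treated C57BL/6, the groups of 10 arrays. The list is not complete for the other groups. Replicate 11 of untreated C57BL/6 is not in it, although its Gapdh difference was 7.43 and the next in its group 0.35. Untreated B6129SF2/J replicate 3 had a poly-A control level of 0.75, with the next array at 2.65, Malat1 at 6.68, Crim1 at 2.07 (next 3.41) and Myh6 at 12.76 (next 12.2). Untreated B6129SF2/J replicate 7 had E2f5 at 2.10 (next 3.41) and Acta1 at 7.17 (next 8.41), and untreated replicate 8 had a 3′ minus 5′ Gapdh difference of 4.35 (next 0.86). In treated C57BL/6, replicate 2 had Gpc3 at 3.82 (next 2.13) and replicate 7 had Atp2a2 at 10.41 (next 10.79).

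The responses differed by the test of the difference itself for 2116 genes. The named genes of highest difference were Sema6c (3.63), Cryl1 (3.05), Aspn (2.63), Ccdc85a (2.49), B3galt2 (2.48), Nrxn3 (2.43), Tmem229a (2.397), E2f5 (2.38), Fpr2 (2.37), Igf2bp1 (2.33), Gpaa1 (2.30) and Rassf9 (2.29). Those of lowest difference were Malat1 (-4.14), Zbtb12 (-3.46), Hnrnpl (-3.16), Zeb2 (-3.15), Junb (-3.15), Crim1 (-3.10), Zbed6 (-3.02), Rbfox2 (-3.01), Gpc3 (-2.86), Synm (-2.80), Otub1 (-2.79) and Jund (-2.76). Of these 24 genes, Malat1, Zeb2, Ccdc85a and Zbed6 also passed the threshold in the intermediate poly-A control band.

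The poly-A controls, which are no mouse genes, had group medians of 0.18 in treated and 2.91 in untreated B6129SF2/J, and of 6.58 in treated and 1.44 in untreated C57BL/6.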

How the results depend on the processing

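The count of 2116 genes with unequal responses moved by more than 1.5 times in the fit over all 8 groups (671), after quantile normalization (3271) and with array weights (3202), and with the settings added after seeing the data: the poly-A control band as a block (5), its level as a covariate (36), the intermediate band alone (17) and without the high-band treated C57BL/6 arrays (1038). Fewer arrays enter the last 2. The cause of the other moves was not tested. The higher share of calls was 33.5% as reported, 53% after quantile normalization, 55.7% with arrays centred on their median (3052 genes) and 65% without the high-band arrays, and the all-gene median of -0.13 became 0.02, 0.03 and 0.12. The B6129SF2/J effect (1601 genes) gave 542 over 8 groups, 2819 after quantile normalization, 2766 centred, 3397 with weights, 917 with the band, 279 in the intermediate band and 958 without the untreated arrays of high Scgb1a1. The C57BL/6 effect (4133) gave 2332 over 8 groups, 1359 with the band, 1555 with the covariate and 1025 in the intermediate band. The untreated hearts (2440 genes between lines) gave 915, 573, 1527 and 79 in these settings and 1576 without the arrays of high Scgb1a1. The treated hearts (1314) gave 469 over 8 groups, 2579 after quantile normalization, 2557 centred, 2418 with weights, 862 with the covariate and 43 in the intermediate band. Leaving out 1 array gave 1748 to 2484 genes for the difference, 1328 to 1879 for B6129SF2/J, 3695 to 4388 for C57BL/6, 1821 to 3012 for the untreated and 1029 to 1542 for the treated hearts.

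Signs turned for 20 of 151 named genes in the intermediate band: Nrxn3 -0.63, Igf2bp1 -0.61, Csrp3 0.24, Xirp1 0.062, Tnnc1 0.016, Mybpc3 0.056, Scn4b 1.27, Decr1 0.11, Ndufa4 0.095, Idh2 0.042, Pdia4 0.19, Pdia3 0.32, Calr 0.12, Hnrnpu 0.062, Psmb2 0.81, Psmd2 0.32, Rps6 0.11, Mybpc2 0.25, Upk3b 0.22 and Upk1b -0.26. With the band as a block 14 turned: Nrxn3 -0.52, Igf2bp1 -0.54, Csrp3 0.078, Cacna1g 0.070, Scn4b 0.16, Egr1 0.17, Gclm 0.47, Pdia3 0.18, Calr 0.12, Psmb2 0.60, Psmd2 0.17, Cd79b 0.095, Mybpc2 0.41 and Upk3b 0.40. With the covariate 5 turned: Igf2bp1 -0.23, Csrp3 0.013, Egr1 0.18, Psmb2 0.086 and Mybpc2 0.093. Averaging probe sets turned Atp2a2 to 0.026, Pdia3 to 0.055, Tra2a to -0.022, Meg3 to -0.053 and Upk1b to -0.029. The cause was not tested. No sign turned in the other settings, and 108, 120 and 121 named genes kept their sign but not their call in the intermediate band, with the block and with the covariate.

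Same-numbered arrays of different groups had median correlations of their deviations between -0.04 and 0.08, so the replicate numbers do not pair them. The replicate block gave 2065 genes, with a consensus correlation of -0.01, and changed no call among the named genes. Dim genes near the array median are limited by signal over background.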
